A study of Homo sapiens with 20 samples.

Results

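The zinc finger genes of human chromosome 19 were followed in HCT-116 cells, an established colorectal cancer line, when the proteasome was inhibited with and without a block of transcription. Members were the protein-coding gene rows on chromosome 19 whose symbol is ZNF followed only by digits: 214 of 39918 gene rows. Another 224 ZNF genes lie on other chromosomes and 1153 other protein-coding genes on chromosome 19, and these served for comparison.

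The genes encode C2H2 zinc finger proteins, which bind DNA through a row of fingers, each holding a zinc ion. Most also carry a KRAB domain at the start of the protein, which recruits the co-repressor TRIM28 and, through it, the histone methyltransferase SETDB1, and many of them silence transposable elements. They lie in clusters that grew by repeated duplication, their mRNAs are low in number, and they are known as short-lived, so that a block of RNA polymerase II is a setting in which a loss of such mRNAs would be looked for.

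Total RNA, depleted of ribosomal RNA, was sequenced from 20 samples in 5 groups of 4. The asynchronous group received no drug and no synchronisation. The G2 group was blocked for 16 h with 2 mM thymidine, which halts DNA synthesis, then released into fresh medium for 7 h. Cells of the other 3 groups had the same synchronisation and then 3 h of 20 µM MG132, of 100 nM bortezomib (both inhibit the proteasome), or of 20 µM MG132 together with 50 µg/ml of the RNA polymerase II inhibitor α-amanitin. The G2 group was taken before drug, at 0 h, so each comparison of a drug group with G2 also holds 3 h of cell cycle time. Nothing in the labels says whether the 4 replicates were separate cultures. The p-values therefore measure only how far these samples spread, and that spread may be technical. In bulk RNA, fewer cells with a transcript and less transcript per cell cannot be told apart.

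Libraries held 26797395 to 39710457 counts. The epithelial marker list, of which 6 of 10 genes passed the filter on low counts, summed to 3215 to 5975 CPM (counts per 1000000, scaled by the TMM method) per library. Fibroblast markers, with 2 of 10 tested, summed to 8.03 to 25.2 CPM, and leukocyte markers, with 2 of 10 tested, to 1.69 to 6.55 CPM. Their defining genes DCN, LUM, PTPRC and CD3E had group means of 0 to 0.0548 CPM. COL1A1 and FBLN1 of the fibroblast list were not near 0, with group means of 3.74 to 10.3 and 5.87 to 10.6 CPM, and CD68 of the leukocyte list was at 2.55 to 3.69 CPM. COL1A1 rose from asynchronous to G2 cells by 1.19 (SE 0.245, adjusted p = 0.0133 in edgeR), and the summed fibroblast markers went from 9.71 ± 2.30 to 18.4 ± 2.08 CPM. The part of such cells in the results was not tested. Libraries also differed in how the level of all genes depended on GC content. The slope, in log2 units per 10 percentage points of GC, was above 0.3 or below -0.3 in 4 libraries, at 0.73 in MG132 replicate 4, 0.50 in asynchronous replicate 3, 0.36 in G2 replicate 2 and -0.41 in MG132 replicate 2.

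ZNF443 and ZNF799 are shown by their promoters because these neighbouring paralogs fell by similar amounts in cells given MG132 with α-amanitin (values further on). The windows run from 250 bases before to 50 bases after the gene start in RefSeq on GRCh38.p14, both on the minus strand, at chr19:12440972-12441271 for ZNF443 and chr19:12401222-12401521 for ZNF799. Capitals mark the longest stretch the pair shares, 42 bases. Over 215 aligned columns, 197 were identical (91.6%).
ZNF443: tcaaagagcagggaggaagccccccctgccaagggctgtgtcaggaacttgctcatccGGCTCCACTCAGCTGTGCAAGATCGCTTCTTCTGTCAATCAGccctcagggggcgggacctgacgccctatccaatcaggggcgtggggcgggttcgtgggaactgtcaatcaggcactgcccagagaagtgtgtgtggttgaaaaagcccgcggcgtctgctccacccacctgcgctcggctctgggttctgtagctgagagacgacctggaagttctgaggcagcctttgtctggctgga
ZNF799: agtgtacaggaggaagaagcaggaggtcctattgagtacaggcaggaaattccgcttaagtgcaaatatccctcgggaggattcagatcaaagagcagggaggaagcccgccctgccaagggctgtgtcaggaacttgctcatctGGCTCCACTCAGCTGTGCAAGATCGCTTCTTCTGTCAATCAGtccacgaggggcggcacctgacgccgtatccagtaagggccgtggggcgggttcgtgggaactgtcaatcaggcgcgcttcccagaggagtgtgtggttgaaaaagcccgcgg

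ZNF875 and ZNF792 are shown next because they differed from G2 in opposite directions in each drug group. The ZNF875 window lies at chr19:37312587-37312886 on the plus strand and has a GC content of 60.3% with 18 CpG sites. The ZNF792 window lies at chr19:34964180-34964479 on the minus strand and has a GC content of 65% with 24 CpG sites. Neither held a match to the 3 motifs searched, so no letters are in capitals.
ZNF875: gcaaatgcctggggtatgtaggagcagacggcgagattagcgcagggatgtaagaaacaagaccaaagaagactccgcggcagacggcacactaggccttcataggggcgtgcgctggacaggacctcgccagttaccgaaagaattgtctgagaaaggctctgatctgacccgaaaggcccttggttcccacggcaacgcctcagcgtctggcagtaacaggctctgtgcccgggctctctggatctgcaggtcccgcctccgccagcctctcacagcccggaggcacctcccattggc
ZNF792: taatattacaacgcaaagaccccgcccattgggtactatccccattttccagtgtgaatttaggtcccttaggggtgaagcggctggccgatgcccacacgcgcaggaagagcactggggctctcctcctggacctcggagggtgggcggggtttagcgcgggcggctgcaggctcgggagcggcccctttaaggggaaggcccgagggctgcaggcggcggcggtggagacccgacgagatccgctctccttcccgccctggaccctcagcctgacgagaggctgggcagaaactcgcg

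A promoter window was listed for 187 of the 214 genes. On either strand, TATAA was present in 6.42% of them, against 21.1% of all 27305 windows. ACTACAA, the core of the motif of the factor ZNF143, was present in 5.35% against 2.95%, and AAGATGG, which holds the core bound by YY1, in 8.02% against 6.06%. The median GC content was 60% against 58.3%, with 20 CpG sites against 14. Among the 13706 windows of other protein-coding genes, TATAA was in 14.7%, ACTACAA in 3.29% and AAGATGG in 6.6%, with a median GC content of 63.7% and 24 CpG sites. Beside those, the zinc finger windows were lower in GC content and CpG sites. These are matches of letters within 300 bases and not binding sites, and none of the 3 motifs contains another.

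The genes lay in 21 groups separated by more than 500 kb. The largest, near the end of the long arm from 57191500 to 58481230 on hg38, held 39 genes from ZNF264 to ZNF446. The next held 37 genes from ZNF175 to ZNF331, and all 37 encoded a KRAB-like sequence pattern. Over all 214, 170 proteins held the pattern and 44 did not. The pattern is a search of the translated sequence and misses some proteins known to carry the domain. The median number of C2H2 fingers was 12. ZNF91, which is known to bind and silence SVA retrotransposons, had the most with 32, and ZNF738 had 0 in the translated transcript. Median GC content of the longest transcript was 42.4% for all genes, 42.05% with the pattern and 53.95% without it. The class without the pattern therefore also stood apart in base composition.

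Many of these transcripts were scarce. Only 154 of the 214 genes passed the filter on low counts, 121 with the KRAB-like pattern and 33 without it, and the other 60 had a mean of at most 0.134 CPM over the 20 libraries. A filter of this kind keeps a gene through the group in which it is high, so counts below are of the 154 tested genes. The mean lay under 0.1 CPM for 57 genes, over 10 CPM for 66 and over 50 CPM for 6. The lowest was ZNF285, at 0.0013 CPM. ZNF93, known to silence young L1PA elements, was at 0 in every library of 4 groups and had a mean of 0.00816 CPM in asynchronous cells. ZNF331 and ZNF43 were likewise under the filter, with means of 0.00783 and 0.00838 CPM.

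The highest levels belonged to ZNF121 and ZNF146, 2 proteins without the KRAB-like pattern, with means of 211 and 170 CPM. They held 17% of the summed level of the 214 genes, and the 10 highest held 36.2%. Per kilobase of transcript the order was reversed, 44.9 CPM per kb for ZNF146 and 29.4 for ZNF121. Below these came ZNF562 at 76.8, ZNF317 at 66.7, ZNF460 at 60.2 and ZNF544 at 52.1 CPM.

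**Figure D1:**
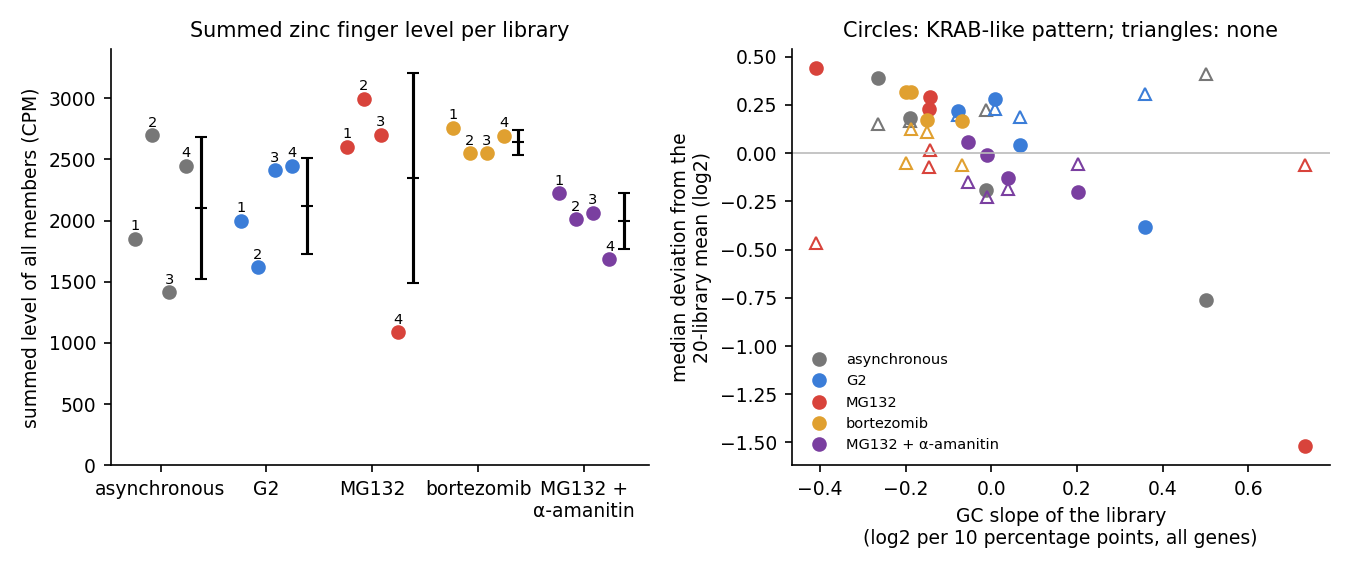
Left, summed level of the 214 zinc finger genes in each of the 20 libraries (CPM, numbered by replicate, bars are the mean ± SD of a group). Right, median log2 deviation of the tested genes from their mean over 20 libraries against the GC slope of the library, circles for genes with the KRAB-like pattern and triangles for those without. MG132 replicate 4 has the lowest sum, 1088 CPM, and the steepest slope, 0.73.

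The summed level of the 214 genes was 2103 ± 581 CPM in asynchronous cells (SD, n = 4 here and for all group means), 2118 ± 391 in G2, 2347 ± 856 in MG132, 2638 ± 104 in bortezomib and 1996 ± 226 in MG132 with α-amanitin. In MG132 the 4 libraries were at 2602, 2997, 2701 and 1088 CPM, so that the lowest and the highest of all 20 libraries lay in the same group. With α-amanitin they were at 2224, 2012, 2063 and 1685 CPM, and in bortezomib they lay between 2551 and 2759. Bortezomib libraries lay above all G2 libraries and all libraries with α-amanitin, every other pair of groups overlapped, and no test was made on these sums.

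Of the 154 tested genes, 90 had their lowest level of all 20 libraries in MG132 replicate 4. These were 82 of 121 genes with the KRAB-like pattern and 8 of 33 without it. In that library the median deviation from the mean over 20 libraries was -1.52 (log2) for the first class and -0.06 for the second. ZNF146 shows the range: its MG132 levels were 188, 369, 225 and 28.6 CPM. ZNF121 was at 294, 331, 304 and 35.5 CPM in the same 4 libraries. ZNF91 was at 19.6, 22.7, 22.0 and 4.19 CPM. In each case the fourth library stood far below the other 3, and it is also the library with the steepest GC slope. The part of GC content in this was not tested, but values with an offset for GC and length, and without the 4 GC-skewed libraries, are given beside the results they change.

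MG132 with α-amanitin was compared with MG132 alone after the same 3 h. No group had α-amanitin alone, and how far transcription was blocked was not measured. Of the 154 zinc finger genes, 1 fell and 0 rose relative to MG132 alone (edgeR's quasi-likelihood test with Benjamini-Hochberg adjustment over 18959 genes, as for every call below, at an adjusted p under 0.05), where 1.51% of all tested genes fell and 0.68% rose. At an unadjusted p under 0.05, 7 were lower and 3 higher, against 5.87% and 6.62% of all genes. All 4 libraries with α-amanitin lay below all 4 of MG132 alone for 5 genes, against 4.01% of all genes, and above for 2, against 4.82%. DESeq2 called 2 lower and 0 higher, where 2.6% and 1.19% of all genes were called. The median log2 fold change of the 154 was -0.14, beside 0.02 for all genes, and it turned to 0.06, beside 0.20 for all genes, with scaling by total library size. It was 0.01 with limma-voom (0.10 for all genes), -0.29 without MG132 replicate 4, -0.04 without MG132 replicate 2 and -0.29 without the 4 GC-skewed libraries. With mitochondrial scaling it was -0.26 (-0.12 for all genes), and 79.9% of the 154 were lower. Levels are relative to the other transcripts of a library, so a loss common to most transcripts would not show in them. A level within 1.5-fold of MG132 alone was found for 131 of 154 genes, beside 15332 of 18959 for all genes. Median standard error was 0.34 on the log2 scale.

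For comparison, a list of 35 mRNAs widely known as short-lived (early response and feedback genes) had 17 genes that fell and 0 that rose in the same comparison, with a median of -1.11. MYC fell by 1.41 (SE 0.208, adjusted p = 0.000395). Of 29 mRNAs known as long-lived, 1 fell, FTL, the ferritin light chain, and the median was -0.19. These lists were chosen with results of this series known. No test of the lists against each other was made. Zinc finger genes of other chromosomes had 3 that fell and 1 that rose of 200, with a median of -0.10. The other protein-coding genes of chromosome 19 had 15 that fell and 1 that rose of 884, with a median of 0.03. The short-lived list also changed in MG132 against G2, where 6 genes rose and 5 fell, with a median of 0.04. Its sum was 2484 ± 189 CPM in G2 and 3165 ± 192 CPM in MG132. How far rises in MG132 entered the 17 falls was not tested.

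**Figure D2:**
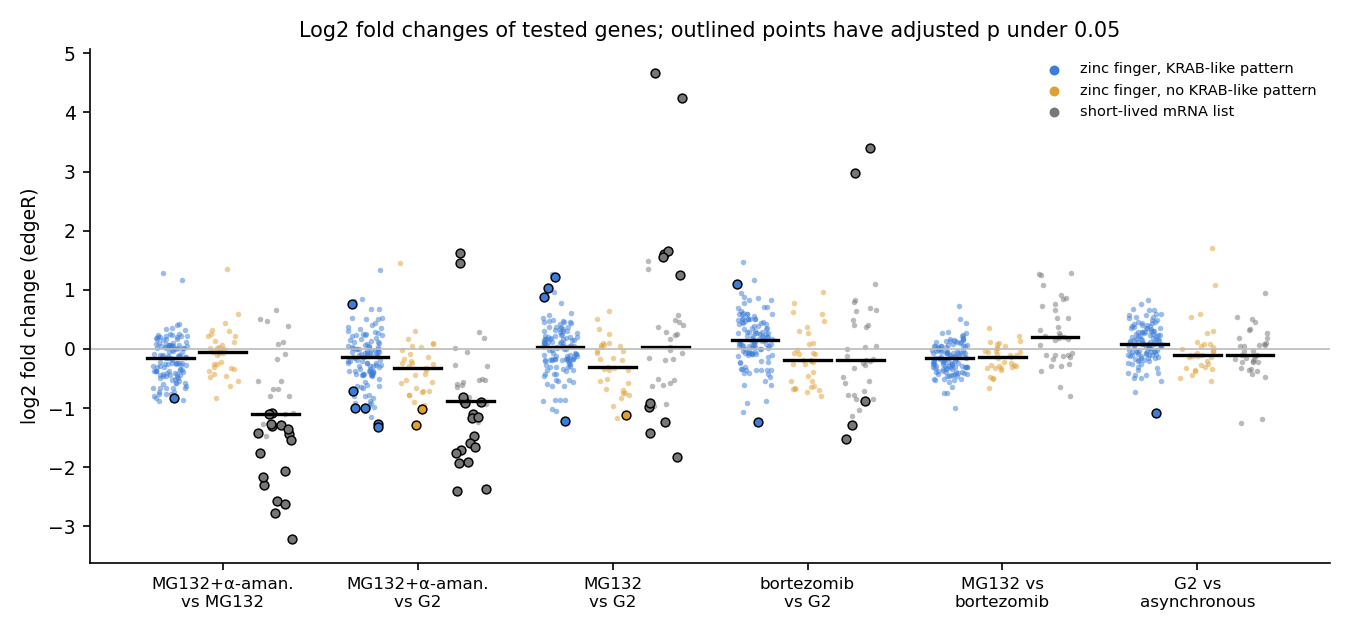
Log2 fold changes (edgeR) of tested genes in the 6 comparisons, for zinc finger genes with the KRAB-like pattern (121), without it (33) and the short-lived mRNA list (35). Each point is a gene, black bars are medians and outlined points have an adjusted p under 0.05. In the comparison of MG132 with α-amanitin against MG132, 1 zinc finger gene is outlined beside 17 of the short-lived list. Of that list, 6 rose and 5 fell in MG132 against G2.

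ZNF473 was the gene that fell. It lies on the plus strand at chr19:50025714-50053414 (hg38) and encodes a zinc finger protein known to act with the U7 snRNP in forming the 3′ ends of histone mRNAs. Its levels in MG132 were 47.8, 68.7, 57.9 and 50.7 CPM, and with α-amanitin 25.2, 28.99, 33.5 and 39.2 CPM, so the groups did not overlap. In G2 it was at 27.6, 35.3, 29.2 and 30.4 CPM. It rose in MG132 over G2 by 0.88 (log2, SE 0.183, adjusted p = 0.0124) and fell from MG132 to MG132 with α-amanitin by 0.83 (SE 0.182, adjusted p = 0.0167). The same MG132 libraries enter both comparisons. With α-amanitin its level was within 0.05 (SE 0.181, adjusted p = 0.942) of G2. In bortezomib it was at 54.4, 47.5, 41.8 and 40.9 CPM, all above G2, with a difference of 0.59 that did not pass the test (adjusted p = 0.116). DESeq2 did call this difference.

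The fall of ZNF473 did not pass without MG132 replicate 2 (adjusted p = 0.0545) or without α-amanitin replicate 1 (0.098) or 2 (0.0783), and it kept its call in 25 of 32 alternatives. It was also lost with total library size (0.155) or mitochondrial scaling (0.212), as was the rise in MG132 (0.0814 and 0.432). In a fit of only the groups compared neither passed, the fall at 0.127 and the rise at 0.195. On the genome ZNF473 overlaps VRK3 on the other strand, so reads of the pair cannot be told apart where strand was not used in counting.

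The highest fold changes over MG132 alone belonged to scarce genes. ZNF461 was at 0.558, 0.277, 0.314 and 0.0676 CPM in MG132 and at 0.769, 1.03, 0.717 and 0.580 with α-amanitin, a difference of 1.35 (SE 0.513, adjusted p = 0.24). ZNF546 had means of 0.318 ± 0.15 and 0.79 ± 0.366 CPM, a difference of 1.29 (SE 0.447, adjusted p = 0.178). Neither passed. With the GC and length offset ZNF546 passed (1.29, adjusted p = 0.0318), and the count became 7 lower and 1 higher, where 3.51% and 1.08% of all genes were called. The 7 were ZNF114, ZNF324, ZNF419, ZNF473, ZNF567, ZNF574 and ZNF875. Without the 4 GC-skewed libraries 5 were lower and 0 higher, where 1.84% and 0.285% of all genes were called.

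Against G2, MG132 with α-amanitin gave the most calls. Of the 154 genes 7 fell and 1 rose, where 2.32% and 1.04% of all genes did. The median was -0.20, beside -0.004 for all genes, and 68.8% of the 154 were lower. At an unadjusted p under 0.05, 24 were lower and 5 higher, against 8.56% and 5.82% of all genes. The 4 libraries of a group lay wholly below those of G2 for 27 genes, against 7.24% of all genes, and wholly above for 9, against 7.76%. Zinc finger genes of other chromosomes had 1 in each direction of 200. Their median was -0.11 and 63% were lower, with 26 lower and 9 higher at an unadjusted p under 0.05. Of these 200, 21 lay wholly below G2 and 12 wholly above. The other protein-coding genes of chromosome 19 had 11 that fell and 4 that rose of 884, with a median of -0.08 and 59.2% lower. Of the 35 short-lived mRNAs 16 fell and 2 rose, with a median of -0.88.

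The count of genes that fell depended on how the GC-skewed libraries were handled. It was 24 with the GC and length offset, where 4.14% of all genes were called lower (and 2 rose, where 1.68% of all genes did), 23 without the 4 GC-skewed libraries, where 3.28% were, and 12 without MG132 replicate 4 alone, where 2.8% were. That library is in neither group and acts through the shared estimate of spread and the scaling. Median standard error of the 154 genes was 0.34 as reported, 0.22 with the offset and 0.22 without the 4 libraries. DESeq2 called 13 lower and 2 higher, where 3.34% and 1.96% of all genes were called. In the other direction, the count was 2 without G2 replicate 1, without α-amanitin replicate 1 or without α-amanitin replicate 2. Of all genes 1.2%, 1.01% and 1.19% were called lower there. It was 4 without G2 replicate 2, where 1.37% of all genes were called lower. Scaling by mitochondrial mRNAs moved the median of all genes to -0.41 and gave 17 lower and 0 higher in place of 7 and 1, where 4.74% and 0.443% of all genes were called.

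ZNF574 kept its call in all 32 alternatives. It is a zinc finger gene without the KRAB-like pattern, with 18 fingers and a transcript of 60.9% GC, at chr19:42068477-42081549 on the plus strand. Its G2 levels were 27.9, 34.9, 31.6 and 34.3 CPM, and with MG132 and α-amanitin 10.0, 12.3, 14.9 and 15.7 CPM, with no overlap. It fell by 1.28 (SE 0.232, adjusted p = 0.00346). In MG132 alone it was at 16.3, 10.8, 18.4 and 26.8 CPM and in bortezomib at 18.3 to 20.9 CPM, below every G2 library in both. Those differences, -0.83 (adjusted p = 0.0688) and -0.68 (adjusted p = 0.161), did not pass in the fit of all libraries. The first passed with DESeq2 (0.0489), limma-voom (0.0459), the GC and length offset (0.00337), without the 4 GC-skewed libraries (0.0285) and without MG132 replicate 4 (-1.08, 0.00703). The second passed without the 4 GC-skewed libraries (0.0354), in a fit of only those groups (0.0329) and, before rounding, with the offset (0.05). From MG132 to MG132 with α-amanitin the difference was -0.45 (SE 0.23, adjusted p = 0.437). GRIK5 overlaps the gene on the other strand.

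ZNF443 and ZNF799, whose promoters are shown above, lie next to each other on the minus strand at chr19:12429707-12441112 and chr19:12390016-12401271. ZNF443 was at 8.12, 5.41, 6.97 and 7.09 CPM in G2 and at 2.39, 2.16, 4.14 and 2.40 CPM with MG132 and α-amanitin. It fell by 1.31 (SE 0.336, adjusted p = 0.0326). ZNF799 was at 10.7, 4.96, 6.35 and 6.01 CPM in G2 and at 2.44, 2.60, 3.98 and 2.54 CPM with MG132 and α-amanitin. It fell by 1.28 (SE 0.302, adjusted p = 0.0206). For both genes every treated library was below every G2 library, and the third was the highest of the treated 4.

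The pair are not independent measurements. Of the 50-base words in the ZNF443 transcript 29.9% were also in ZNF799, and 19.3% of those in ZNF799 were in ZNF443, so reads there could be counted for either. Both also overlap other gene rows on their own strand. The ZNF443 call was lost without G2 replicate 1 (adjusted p = 0.0997), 3 (0.0528) or 4 (0.0602) and without α-amanitin replicate 1 (0.123), 2 (0.124) or 4 (0.0821), and with the replicate block (0.0574). The ZNF799 call was lost without G2 replicate 1 (0.103) and without α-amanitin replicate 1 (0.0887), 2 (0.079) or 4 (0.0581). Both were already low in MG132 alone, with means of 3.42 ± 1.74 and 3.87 ± 1.77 CPM, and in bortezomib, with 3.29 ± 0.533 and 3.71 ± 0.107 CPM, where neither passed against G2. With the GC and length offset both passed as lower than G2, ZNF443 in MG132 (adjusted p = 0.00273) and bortezomib (0.0017) and ZNF799 in the same groups (0.0206 and 0.00486). Without the 4 GC-skewed libraries ZNF443 passed in MG132 (0.0459) and both passed in bortezomib (0.0114 and 0.0209). ZNF443 also passed in MG132 without MG132 replicate 2 (0.0496), and in bortezomib with DESeq2 (0.0487), in a fit of only those groups (0.0218) and without MG132 replicate 4 (0.045).

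ZNF576 (chr19:43596392-43601157, plus strand), a short protein of 170 residues with 4 fingers and no KRAB-like pattern, was at 14.2, 13.96, 9.27 and 9.95 CPM in G2 and at 4.53, 5.89, 6.23 and 6.91 CPM with MG132 and α-amanitin. It fell by 1.01 (SE 0.247, adjusted p = 0.0254). The call was lost without G2 replicate 1 (adjusted p = 0.0941) or 2 (0.0928) and without α-amanitin replicate 1 (0.117), 2 (0.0798) or 3 (0.0593), and with a block for an undocumented letter in the sample codes, the code letter block (0.235). ZNF576 overlaps SRRM5 on the same strand.

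ZNF416 (chr19:57571566-57578927, minus strand) was at 10.9, 10.9, 6.72 and 8.34 CPM in G2 and at 3.41, 3.82, 5.25 and 6.05 CPM with MG132 and α-amanitin. It fell by 0.99 (SE 0.24, adjusted p = 0.0235). Its call was lost without G2 replicate 1 (adjusted p = 0.0869) or 2 (0.0903) and without α-amanitin replicate 1 (0.112) or 2 (0.1). It was also lost with the code letter block (0.175) and total library size scaling (0.0668). ZNF114 also fell, from 6.21 ± 0.349 to 3.8 ± 0.913 CPM, by 0.71 (SE 0.188, adjusted p = 0.04). It is named although it was the seventh by size, outside the rule for named genes, and was chosen after its values were seen. The ZNF114 call was lost with total library size scaling (adjusted p = 0.0783), without a filter (0.129), in a fit of only the groups compared (0.0669), with the replicate block (0.0733), with the code letter block (0.298) and without the 4 GC-skewed libraries (0.0558). It was also lost without bortezomib replicate 1 (0.0516), without any G2 library (0.0546 to 0.116) and without α-amanitin replicate 1 (0.175), 2 (0.101) or 3 (0.105). In MG132 alone ZNF114 was at 5.02 to 6.79 CPM, next to G2.

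**Figure D3:**
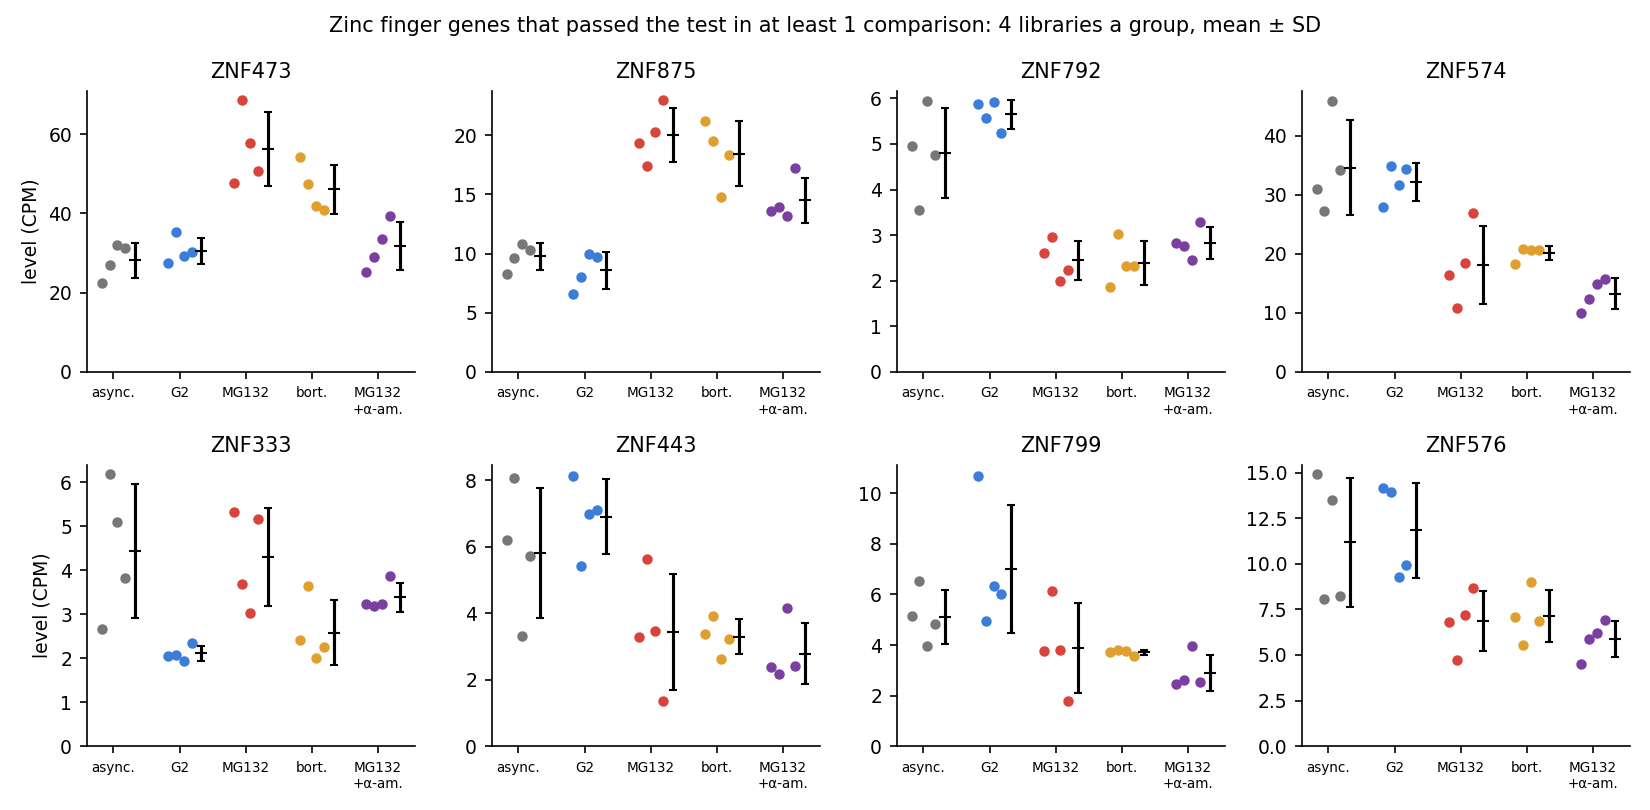
Levels (CPM) of 8 of the zinc finger genes that passed the test in at least 1 comparison, in 4 libraries of each group with the mean ± SD. ZNF473 and ZNF875 are high in MG132 and bortezomib, ZNF792 is low in all 3 drug groups, and ZNF574, ZNF443, ZNF799 and ZNF576 are lowest by mean in MG132 with α-amanitin.

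Against G2, 5 zinc finger genes passed in MG132 alone, a comparison that also holds 3 h of cell cycle time. Of the 154 genes 3 rose and 2 fell, where 1.01% and 1.08% of all genes did. At an unadjusted p under 0.05, 4 were higher and 18 lower, against 4.13% and 7.67% of all genes. The libraries did not overlap for 3 that were higher, against 2.07% of all genes, and 7 that were lower, against 4.45%. The median was -0.03, beside -0.03 for all genes and -0.12 for the other protein-coding genes of chromosome 19. The median of the 154 turned to 0.17 without MG132 replicate 4. The split was 1 higher and 2 lower with total library size scaling and 0 and 2 with mitochondrial scaling, where the median of all genes was at -0.15 and -0.29. Of all genes 0.76% were higher and 1.76% lower under the first scaling, and 0.401% and 0.696% under the second. With the GC and length offset, 10 fell and 3 rose, where 2.09% and 2.42% of all genes were called. The count that fell was 5 without MG132 replicate 4, where 1.83% of all genes fell, and 1 without G2 replicate 1, 2 or 4 or MG132 replicate 3, where 0.381% to 0.645% did.

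ZNF875, also known as HKR1, had the largest rise that passed. It encodes a KRAB zinc finger protein and lies at chr19:37312837-37369365 on the plus strand. Its levels were 6.61, 7.98, 9.94 and 9.74 CPM in G2, and 19.3, 17.4, 20.3 and 23.0 CPM in MG132. In bortezomib it was at 21.2, 19.5, 14.8 and 18.3 CPM, and in MG132 with α-amanitin at 13.6, 13.9, 13.2 and 17.3 CPM. All 12 drug-treated libraries were above all 4 G2 libraries.

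ZNF875 rose over G2 by 1.22 in MG132 (SE 0.176, adjusted p = 0.00046), by 1.11 in bortezomib (SE 0.176, adjusted p = 0.00256) and by 0.76 in MG132 with α-amanitin (SE 0.175, adjusted p = 0.0173). These comparisons share the 4 G2 libraries, and each also holds 3 h of cell cycle time, which cannot be told apart from the drug. The level with α-amanitin was below that of MG132 alone by a log2 difference of -0.46 (SE 0.174), which did not pass (adjusted p = 0.229). The last of the 3 rises was lost without G2 replicate 1 (adjusted p = 0.0801) or 2 (0.0701) and without α-amanitin replicate 4 (0.0631). It was also lost with total library size scaling (0.0803), without a filter (0.0626) and in a fit of only the groups compared (0.0509). The rise in MG132 was lost in a fit of only the MG132 and G2 libraries (0.0676). With mitochondrial scaling none of the 3 passed (adjusted p = 0.141, 0.184 and 0.476). The bortezomib value had 0.0666 with the code letter block.

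ZNF792, a KRAB zinc finger gene at chr19:34956354-34964049 on the minus strand, moved the other way. It was at 5.88, 5.56, 5.92 and 5.24 CPM in G2, at 2.60, 2.96, 1.99 and 2.23 CPM in MG132, at 1.86, 3.03, 2.33 and 2.33 CPM in bortezomib and at 2.83, 2.76, 2.45 and 3.29 CPM in MG132 with α-amanitin. The 12 drug-treated libraries all lay below the 4 G2 libraries, and the 3 drug groups overlapped each other. It fell by 1.21 (SE 0.205, adjusted p = 0.00248), 1.24 (SE 0.205, adjusted p = 0.0037) and 1.00 (SE 0.203, adjusted p = 0.00782), again against the same G2 libraries. Each of these calls held when any library was left out. Drug and cell cycle time cannot be told apart in these calls either. With the code letter block, the last of them had an adjusted p of 0.0632 and the bortezomib value 0.101, and in a fit of only the MG132 and G2 libraries the first had 0.0756. From MG132 to MG132 with α-amanitin the difference was 0.21 (SE 0.205, adjusted p = 0.751). The gene overlaps no other, and its transcript shares no 50-base word with another member.

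ZNF333 rose in MG132 over G2 by 1.03 (SE 0.26, adjusted p = 0.0437) after falling from asynchronous to G2 cells by 1.08 (SE 0.26, adjusted p = 0.034). It was at 2.65, 6.18, 5.09 and 3.82 CPM in asynchronous cells, at 2.06, 2.08, 1.93 and 2.36 CPM in G2 and at 5.32, 3.68, 3.03 and 5.17 CPM in MG132. The G2 libraries, shared by both comparisons, were the low ones in each. Both calls were near the threshold: the first was lost in 24 and the second in 15 of 32 alternatives. The rise in MG132 was lost when any of 15 libraries was taken out (adjusted p between 0.0503 and 0.142), and the fall in G2 when asynchronous replicate 2 (0.122), 3 (0.0655) or 4 (0.0623) or any G2 library (0.0725 to 0.0923) was.

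ZNF296, a gene without the KRAB-like pattern and with a transcript of 68.1% GC, fell in MG132 by 1.12 (SE 0.268, adjusted p = 0.0316), from 5.22, 5.04, 3.31 and 5.21 CPM in G2 to 3.01, 1.23, 1.75 and 2.67 CPM. The groups did not overlap. The call was lost with the GC and length offset (-0.79, adjusted p = 0.0587), without G2 replicate 1 (0.0881), 2 (0.0907) or 4 (0.0898), and without MG132 replicate 2 (0.0894) or 3 (0.125). It was also lost without the 4 GC-skewed libraries (0.166), with the code letter block (0.0735), without a filter (0.0572) and in a fit of only those groups (0.344). In bortezomib the difference from G2 was -0.80 (adjusted p = 0.149) and in MG132 with α-amanitin -0.90 (adjusted p = 0.0702).

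Bortezomib was a second proteasome inhibitor at the same time. Of the 154 genes, 1 rose (ZNF875) and 1 fell (ZNF792) against G2, where 0.491% and 0.659% of all genes did. Both genes also passed in MG132. At an unadjusted p under 0.05, 7 were higher and 15 lower, against 5.53% and 8.99% of all genes. The libraries did not overlap for 27 that were higher, against 7.66% of all genes, and 19 that were lower, against 7.55%. The median was 0.09, beside -0.01 for all genes, and it turned to -0.08 with the GC and length offset and to -0.11 with mitochondrial scaling, which put the median of all genes at -0.22. With the offset 6 fell and 1 rose, where 2.01% and 1.42% of all genes were called. Without the 4 GC-skewed libraries 6 fell and 2 rose, where 1.25% and 0.88% were. A fit of only the bortezomib and G2 libraries gave 4 that fell and 3 that rose, where 1.5% and 0.695% of all genes did. Without MG132 replicate 4, 2 fell, where 1.2% of all genes did.

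Classes of zinc finger genes lay apart in bortezomib against G2, along with their GC content. Genes with the KRAB-like pattern had a median of 0.15 and those without it -0.19. Of the 100 genes under 45% GC 26% were lower in bortezomib, and of the 20 genes over 55% GC 95% were, with medians of 0.23 and -0.43. Among the 884 other protein-coding genes of chromosome 19 that were tested, 75.6% were lower, with a median of -0.20. Across the 154 genes, Spearman's rho of the log2 fold change with GC content was -0.41, given as a description, since the genes share libraries and base composition. The GC slopes of the 4 bortezomib libraries were -0.20 to -0.07, and those of G2 -0.08 to 0.36. The part of the slopes in the class difference was not tested.

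A similar split showed between some of the 21 groups by position, though not in all. In the 37-gene group from ZNF175 to ZNF331, with a median GC content of 41.5%, the 26 tested genes had a median of 0.45 in bortezomib against G2. Of these, 12 were higher with no overlap, against 7.66% of all genes. In the 12-gene group from ZNF628 to ZNF471, with a median GC content of 63.2%, all 9 tested genes were lower, with a median of -0.46. Of all genes 51.3% were lower, and of the other protein-coding genes of chromosome 19 75.6% were. No gene of either group passed the test. In MG132 with α-amanitin against G2 the medians were -0.06 and -0.58, and in MG132 alone against G2 they were 0.17 and -0.51. In bortezomib against G2 the group from ZNF653 to ZNF791 (42.3% GC) had a median of 1e-04. That from ZNF575 to ZNF180 (42.65% GC) had 0.09, and the group from ZNF101 to ZNF492 (37.55% GC) 0.26. The 39-gene group from ZNF264 to ZNF446 (46% GC) had 0.03.

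**Figure D4:**
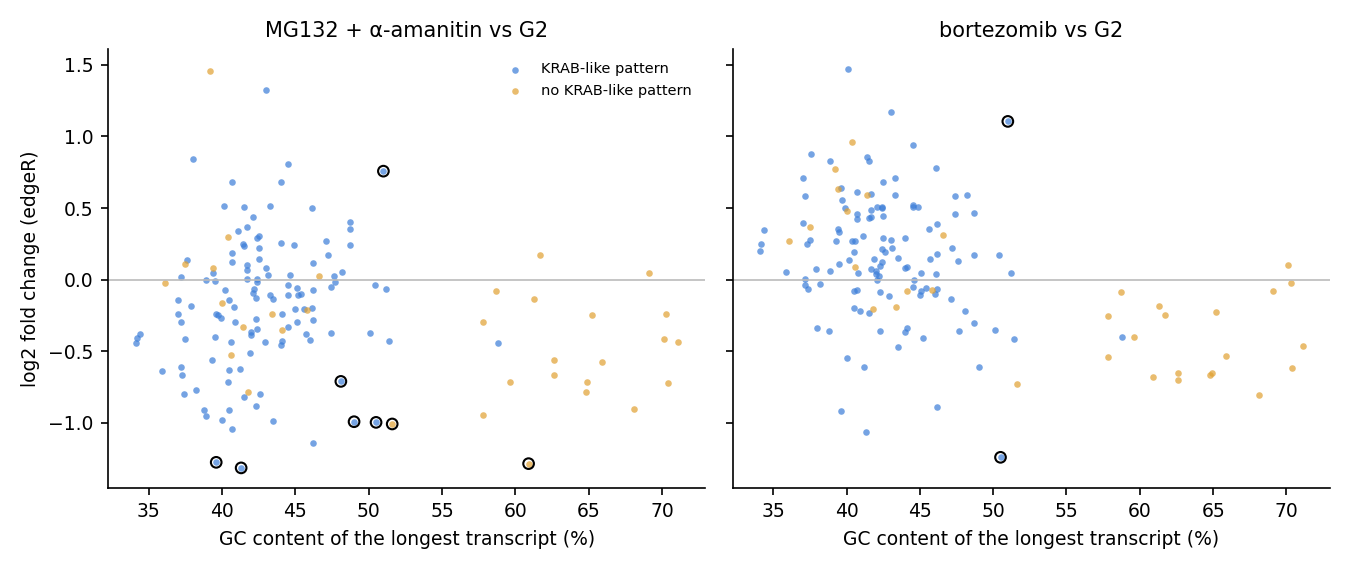
Log2 fold change (edgeR) of the 154 tested zinc finger genes against the GC content of the longest transcript, for MG132 with α-amanitin against G2 (left) and bortezomib against G2 (right). Circled genes passed the test. Genes over 55% GC lie mostly below 0 in both panels, and rho was -0.03 on the left and -0.41 on the right.

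MG132 and bortezomib were compared after the same 3 h of drug, so this contrast holds no difference in time. Whether both drugs left the cells at the same stage of the cell cycle was not tested. None of the 154 genes passed in edgeR, where 0.0369% of all genes were higher and 0% lower, and DESeq2 called 0 as well. At an unadjusted p under 0.05, 3 were higher and 0 lower, against 1.84% and 2.21% of all genes. The libraries did not overlap for 1 gene in each direction, against 1.74% and 1.42%. The median was -0.15, beside -0.01 for all genes and 0.09 for the other protein-coding genes of chromosome 19. The median of the 154 turned to 0.03 without MG132 replicate 4. A level within 1.5-fold was found for 148 of 154 genes, beside 16592 of 18959 for all genes. The genes with the smallest p were ZNF333 (0.73, SE 0.259) and ZNF77 (0.44, SE 0.18) in the higher direction and ZNF233 (-1.01, SE 0.508) and ZNF234 (-0.74, SE 0.386) in the lower, all with an adjusted p of 0.983.

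Synchronisation was examined in the same way. From asynchronous to G2 cells 1 gene fell, ZNF333, and 0 rose, where 0.148% and 1.95% of all genes did. At an unadjusted p under 0.05, 6 were higher and 2 lower, against 9.2% and 3.91% of all genes. The libraries did not overlap for 2 that were higher and 2 that were lower, against 5.75% and 1.89% of all genes. The median was 0.06, beside -0.04 for all genes and -0.02 for the other protein-coding genes of chromosome 19. Of the 154 zinc finger genes 142 were within 1.5-fold, beside 15428 of 18959 for all genes. The median turned to -0.04 without asynchronous replicate 3, and it was 0.20 without asynchronous replicate 2, 0.21 with total library size scaling (0.12 for all genes) and 0.38 with the code letter block (0.02 for all genes). ZNF772 was at 0.0491, 0.22, 0.57 and 0.294 CPM in asynchronous cells and at 0.698, 1.17, 0.982 and 0.953 CPM in G2. This difference of 1.70 (SE 0.524, adjusted p = 0.107) did not pass with all libraries, though the groups did not overlap, and it passed without asynchronous replicate 3 (adjusted p = 0.0421). ZNF274, known to bind the 3′ ends of zinc finger genes and to recruit SETDB1 there, went from 9.94 ± 1.94 to 14.7 ± 2.55 CPM, a difference of 0.57 (adjusted p = 0.103). With the GC and length offset, 2 fell and 3 rose, where 2.48% and 3.52% of all genes were called.

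Members with known targets or partners are given by their levels. ZNF91 had means of 15.5 ± 8.71, 13.9 ± 7.47, 17.1 ± 8.73, 22.7 ± 5.22 and 11.8 ± 4.83 CPM in asynchronous, G2, MG132, bortezomib and MG132 with α-amanitin cells, and it passed in none of the 6 comparisons. All groups overlapped. The SVA subfamilies that it is known to silence passed in none either, and SVA_D, the most abundant, had means of 31.5 ± 9.01 CPM in G2 and 48.5 ± 13.3 in bortezomib (0.62, adjusted p = 0.108). The counting of young repeats and of reads with several positions is not stated, so these values are uncertain. L1PA3 to L1PA6, targets of ZNF93 and other members, did not pass in any comparison, with an adjusted p of at least 0.119.

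ZNF350, a partner of BRCA1 also called ZBRK1, had means of 3.2 ± 1.08 CPM in G2 and 1.84 ± 0.35 in MG132 with α-amanitin, a difference of -0.80 that did not pass (adjusted p = 0.441) but did without the 4 GC-skewed libraries (-1.04, adjusted p = 0.0237). ZNF304 had group means of 13.3 to 16.9 CPM and ZNF675 of 5.49 to 10.4. ZNF428, ZNF358, ZNF787, ZNF444, ZNF580 and ZNF581, members without the KRAB-like pattern and with GC-rich transcripts, passed in no comparison in the fit of all libraries. ZNF787 passed as lower in G2 than in asynchronous cells with the GC and length offset (-0.74, adjusted p = 0.00656). Of the 6 genes, ZNF581 had the lowest log2 value, -0.71 in MG132 with α-amanitin against G2 (adjusted p = 0.196), and it passed there with mitochondrial scaling (-1.13, adjusted p = 0.0424).

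The co-repressor machinery that KRAB zinc finger proteins use was examined alongside, as a list of 27 genes of which 26 were tested. None of the 26 passed in any of the 6 comparisons. TRIM28, the scaffold that KRAB domains bind, had means of 559 ± 107 CPM in G2, 569 ± 169 in MG132, 551 ± 71.1 in bortezomib and 589 ± 26.6 in MG132 with α-amanitin. SETDB1 had means of 45.5 ± 3.3, 35.7 ± 6.72, 36.9 ± 3.34 and 35.3 ± 3.76 CPM in the same order, and its difference of -0.36 between MG132 with α-amanitin and G2 did not pass (adjusted p = 0.406).

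Reads of recent duplicates can be split between copies. Of the 214 transcripts, 90 shared no 50-base word with another member and 14 shared over 10% of their words. ZNF320 and ZNF468 shared most: 99.1% of the words of ZNF468 were in ZNF320. Their values, means of 18.6 and 27.4 CPM, are uncertain for this reason, as are those of ZNF417 with ZNF587 and ZNF98 with ZNF492. In addition, 108 genes overlap a gene on the other strand and 90 a gene on the same strand.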

How the data were processed

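Total RNA, extracted with TRIzol and treated with DNase, went into rRNA-depleted, stranded TruSeq libraries, per the labels' protocols. The authors deposited raw counts, whole numbers per gene and repeat subfamily with no normalisation, for 20 samples. The submitters' processing notes name FastQC, cutadapt 1.18, STAR and hg38 without roles; how reads were counted, with which annotation and strand setting, is not given in the sources used here. Library totals were 26797395 to 39710457 counts. Closeness of replicates was checked by chi-square per degree of freedom (10.7 to 473), and none was treated as a duplicate.

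All 39918 genes and 1174 repeat subfamilies were fitted in R 4.3.3 with edgeR 4.0.16 (filterByExpr, TMM, robust glmQLFit and glmQLFTest), the 20 libraries in 1 fit with a mean per group and 15 residual degrees of freedom. P-values were adjusted by Benjamini-Hochberg over 18959 genes (repeats over 1076), and calls were made at 0.05. CPM are on TMM-adjusted library sizes. Log2 fold changes are from the fit, and a standard error is the size of the log2 fold change over the square root of F. The script was run on simulated data with less spread between libraries than here and no GC skew. That run says nothing of its power on these data. Alternatives were RLE, total and mitochondrial scaling, no and strict filters, DESeq2 1.42.0, limma-voom (limma 3.58.1), a fit of only the groups compared, blocks for replicate number and for a letter in the sample codes, an offset for GC and length (loess span 0.5), omission of 4 GC-skewed libraries, and leaving out each library.

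The genes, classes and lists were chosen with earlier results of these data known. Named genes were up to 6 called genes per direction and comparison with a mean of at least 1 CPM, otherwise the 2 with the smallest p in a direction, the highest and the lowest by mean, and a chosen set, from which those that carry a comparison are given; of that set ZNF382, ZNF268 and ZNF208 are not analysed here. Fingers and the KRAB-like pattern were searched in coding sequences translated from GENCODE 29, the pattern having been widened once after seeing which proteins matched. Promoter sequences are from RefSeq on GRCh38.p14.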

Additional observations from a re-analysis of the deposited data

Results flagged for a closer look

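The 10 called zinc finger genes named by the rule and the summed level of all members were checked in each group, 55 groups of 4 libraries in all, for a library far from the other 3 (Dixon's test, for which chance flags about 1 in 20 groups). In 5 groups a library stood apart. ZNF443 was at 4.14 CPM in MG132 with α-amanitin replicate 3, where the other 3 libraries were at 2.16 to 2.4 CPM. Its neighbour ZNF799 was at 3.98 CPM in the same library, where the others were at 2.44 to 2.6, and the transcripts of this pair share part of their sequence. ZNF574 was at 18.3 CPM in bortezomib replicate 1, below the others at 20.5 to 20.9. ZNF333 was at 3.87 CPM in MG132 with α-amanitin replicate 4, above the others at 3.19 to 3.24. ZNF296 was at 3.31 CPM in G2 replicate 3, below the others at 5.04 to 5.22.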

How the results depend on the processing

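Counts of called genes were recomputed for 12 results under 32 alternatives. Of 384 values 310 stayed within 1.5 times and 74 did not. The 310 include the counts for MG132 against bortezomib, which were 0 in every setting, so they overstate how stable the calls are. Values are given for MG132 with α-amanitin against MG132, the same against G2, MG132 against G2, bortezomib against G2, MG132 against bortezomib and G2 against asynchronous, in that order. As reported, genes lower were 1, 7, 2, 1, 0 and 1, and genes higher 0, 1, 3, 1, 0 and 0. Of all genes, 1.51%, 2.32%, 1.08%, 0.659%, 0% and 0.148% were lower and 0.68%, 1.04%, 1.01%, 0.491%, 0.0369% and 1.95% higher. With the GC and length offset, genes lower were 7, 24, 10, 6, 0 and 2, and genes higher 1, 2, 3, 1, 0 and 3. The shares of all genes were 3.51%, 4.14%, 2.09%, 2.01%, 0% and 2.48% lower and 1.08%, 1.68%, 2.42%, 1.42%, 0.0791% and 3.52% higher. Without the 4 GC-skewed libraries, genes lower were 5, 23, 5, 6, 0 and 1, and genes higher 0, 1, 3, 2, 0 and 0. For all genes the shares were 1.84%, 3.28%, 0.605%, 1.25%, 0% and 0.84% lower and 0.285%, 1.13%, 1.03%, 0.88%, 0.025% and 3.53% higher. With DESeq2, genes lower were 2, 13, 4, 2, 0 and 1, and genes higher 0, 2, 3, 2, 0 and 1. It called 2.6%, 3.34%, 1.67%, 1.88%, 0% and 0.717% of all genes lower and 1.19%, 1.96%, 1.75%, 1.39%, 0.1% and 3.05% higher. With mitochondrial scaling, genes lower were 0, 17, 2, 1, 0 and 0, and genes higher 0 throughout. That scaling gave 1.27%, 4.74%, 0.696%, 0.295%, 0% and 0.0158% of all genes lower and 0.232%, 0.443%, 0.401%, 0.227%, 0.0158% and 0.77% higher. With total library size scaling, genes lower were 0, 5, 2, 1, 0 and 0, and genes higher 0, 0, 1, 1, 0 and 0. Here 1.13%, 2.11%, 1.76%, 0.902%, 0% and 0.0738% of all genes were lower and 0.802%, 0.928%, 0.76%, 0.39%, 0.0211% and 3.5% higher. Fits of only the groups compared, which hold fewer samples, gave 0, 12, 0, 4, 0 and 0 lower and 0, 1, 0, 3, 0 and 0 higher. Among all genes they gave 0.796%, 2.92%, 0.0286%, 1.5%, 0% and 0% lower and 0.278%, 1.35%, 0.464%, 0.695%, 0.0175% and 0.0459% higher. A block for the code letter gave 0, 3, 1, 0, 0 and 0 lower and 0, 1, 2, 0, 0 and 0 higher. Under this block 1.3%, 0.812%, 0.316%, 0%, 0% and 0.0264% of all genes were lower and 0.332%, 0.369%, 0.76%, 0.158%, 0% and 0.554% higher. Without a filter, genes lower were 1, 7, 1, 1, 0 and 0, and genes higher 0, 0, 2, 1, 0 and 0. All genes then had 0.649%, 0.997%, 0.291%, 0.225%, 0% and 0.02% lower and 0.323%, 0.704%, 0.408%, 0.175%, 0.0175% and 0.902% higher. The strict filter gave 0 lower in G2 against asynchronous, where 0.0908% of all genes were lower. The cause of these changes was not tested. Leaving out each library in turn gave 0 to 2, 2 to 12, 1 to 5, 1 to 2, 0 to 0 and 0 to 1 lower, and 0 to 0, 0 to 1, 2 to 3, 1 to 1, 0 to 0 and 0 to 1 higher. The share of all genes lower also varied, from 1.01% to 2.8% in MG132 with α-amanitin against G2. It was 0.762% to 1.97% against MG132 alone, and 0.381% to 1.83% for MG132 against G2. For bortezomib against G2 it was 0.181% to 1.2%.

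Same-numbered libraries did not deviate together in every pair (correlations of -0.61 to 0.62), so the numbers were not taken as a pairing. With the replicate block, genes lower were 1, 5, 2, 1, 0 and 0, and genes higher 0, 1, 2, 1, 0 and 0. Of all genes, 1.14%, 1.73%, 0.617%, 0.327%, 0% and 0.0369% were lower and 0.38%, 0.728%, 0.744%, 0.306%, 0.0158% and 1.22% higher.

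At a median standard error of 0.34, even changes of 2-fold and more often did not pass. In MG132 with α-amanitin against MG132, 3 of the 154 genes differed by at least 2-fold, and none of these passed. A gene without a call is therefore not shown to be unchanged, and the 60 genes under the filter were not tested.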
